A study of Mus musculus with 6 samples.

Results

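A set of 9 genes of the ADAMTS family whose protein products have been linked to fibrillin microfibrils were followed in dorsal skin of tight skin (TSK) and wild-type (WT) mice. They are the proteases Adamts6, Adamts10, Adamts17 and Adamts19 and the ADAMTS-like genes Adamtsl2, Adamtsl3, Adamtsl4, Adamtsl5 and Thsd4. The 9 were picked by gene symbol from the 55291 genes of the deposited table, and all 9 passed the filter on low counts, which left 19971 genes for testing. RNA was taken from shaved dorsal skin of 3 TSK mice and 3 WT littermates, with 1 library per mouse and no treatment. Both groups are C57BL/6 and 6 to 8 weeks old in the labels. The TSK allele is an intragenic duplication in Fbn1, which encodes fibrillin 1, and the study maintained it by backcrossing to C57BL/6. TSK mice that survive to this age are heterozygous, so their skin also holds a normal allele. The labels call all the mice female, whereas the methods of the study call them male. The Y-linked genes Ddx3y, Eif2s3y, Kdm5d and Uty lay between 27.0 and 72.8 counts per 1000000 counts of the library (CPM) in all 6 libraries, and the labelled sex therefore went against the data in both groups alike.

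Fibrillins polymerise outside the cell into microfibrils, which carry elastin in the dermis and hold latent growth factors of the TGF-beta and BMP families. ADAMTS proteases are secreted zinc enzymes with a catalytic domain followed by thrombospondin repeats. The ADAMTS-like proteins share the repeats but have no catalytic domain. Several of both kinds bind fibrillin, and mutations in them give human disorders that overlap with those of FBN1, such as Weill-Marchesani syndrome (ADAMTS10, ADAMTS17), geleophysic dysplasia (ADAMTSL2) and displacement of the eye lens (ADAMTSL4).

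The split between proteases and ADAMTS-like genes can be read from their coding sequence. The 33 bases that encode the zinc-binding site of the metzincin enzymes were searched for in the coding sequence of each of the 9 genes (GENCODE annotation of GRCm38, equal to mm10). The site was found once in each of the 4 proteases and in none of the 5 ADAMTS-like genes. It is given here for the proteases Adamts6, Adamts10 and Adamts17, because it is the feature that sets the enzymes apart; capitals mark the codons of the zinc-binding histidines and of the catalytic glutamate, and every sequence runs 5′ to 3′ on the plus strand. Each one is split over 2 exons by an intron. The Adamts6 site covers codons 403 to 413 and spans chr13:104352847-104366809. The Adamts10 site covers codons 392 to 402 and spans chr17:33538157-33538279. The Adamts17 site covers codons 387 to 397 and spans chr7:66968898-67002473.
Adamts6: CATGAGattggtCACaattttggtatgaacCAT
Adamts10: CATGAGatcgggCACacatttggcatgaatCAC
Adamts17: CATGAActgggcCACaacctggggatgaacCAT
Adamts6 and Adamts10, which are known as the closest relatives of each other among these enzymes, had 26 of the 33 bases in common. Adamts6 and Adamts17 shared 25, and Adamts10 and Adamts17 shared 22.

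The libraries held 17561453 to 19219814 estimated counts each. Fbn1, the mutated gene, measured 267, 289 and 262 CPM in the WT libraries and 1538, 2284 and 2007 CPM in the TSK libraries. All TSK libraries lay above all WT libraries, with a log2 fold change (TSK minus WT) of 2.54 (SE 0.22, adjusted p = 0.00327, edgeR). The skin was sampled whole, and 16 markers of adult skeletal muscle took 17.2% to 25.0% of the counts in WT and 14.8% to 17.0% in TSK. The fibroblast markers, 10 in number, took 0.683% to 1.02% of the counts in WT and 2.17% to 4.86% in TSK. No marker of either list was at 0 in every library, and 7 markers of basal keratinocytes, which identify the tissue as skin, took 0.410% to 0.794% and 0.399% to 0.632%. In whole tissue, fewer cells of a type and less RNA per cell cannot be told apart.

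Among the 9 genes, Adamts10 rose in TSK skin and none fell (edgeR's quasi-likelihood test, adjusted p below 0.05), and without the library WT 3 the number called was 0, in a fit that called 60 of all 20665 genes it tested in place of 678 of 19971. Over all genes tested, 2.71% were higher by the same rule and 0.681% were lower. At an unadjusted p below 0.05, 4 of the 9 were higher (Adamts10, Adamts19, Adamts17 and Adamtsl3) and 0 were lower, beside 12.1% of all genes higher and 7.9% lower. DESeq2 called 2 of the 9 higher, Adamts10 and Adamts19, where 5.5% of all genes were higher and 1.98% lower, and limma-voom called Adamts10 alone, where 2.17% of all genes were higher and 0.556% lower. The study itself applied stricter thresholds with DESeq2, a fold change over 2.5 and an adjusted p under 0.01. By these thresholds edgeR called none of the 9 in either direction, beside 0.255% of all genes higher and 0.0351% lower. DESeq2 as run here called 0 of the 9 higher by them, beside 0.891% of 34809 genes. The log2 fold change was above 0 for 8 of the 9, with a median of 0.42, whereas the median of all genes tested was -0.03. The median of the 9 was 0.20 without TSK 3, 0.65 without WT 2 and -0.20 with the mean of fibroblast markers as a covariate. On the deposited CPM, 5 of the 9 had all TSK libraries above all WT libraries, where 29.1% of all genes did so, and none had them all below, where 2.58% of all genes did. After TMM scaling, which corrects for the share of a library that a few abundant genes take up, 2 of the 9 did so, Adamts10 and Adamts19, beside 14.1% of all genes. None of the 9 had all TSK libraries below all WT libraries on the TMM scale, beside 10.6% of all genes.

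**Figure D1:**
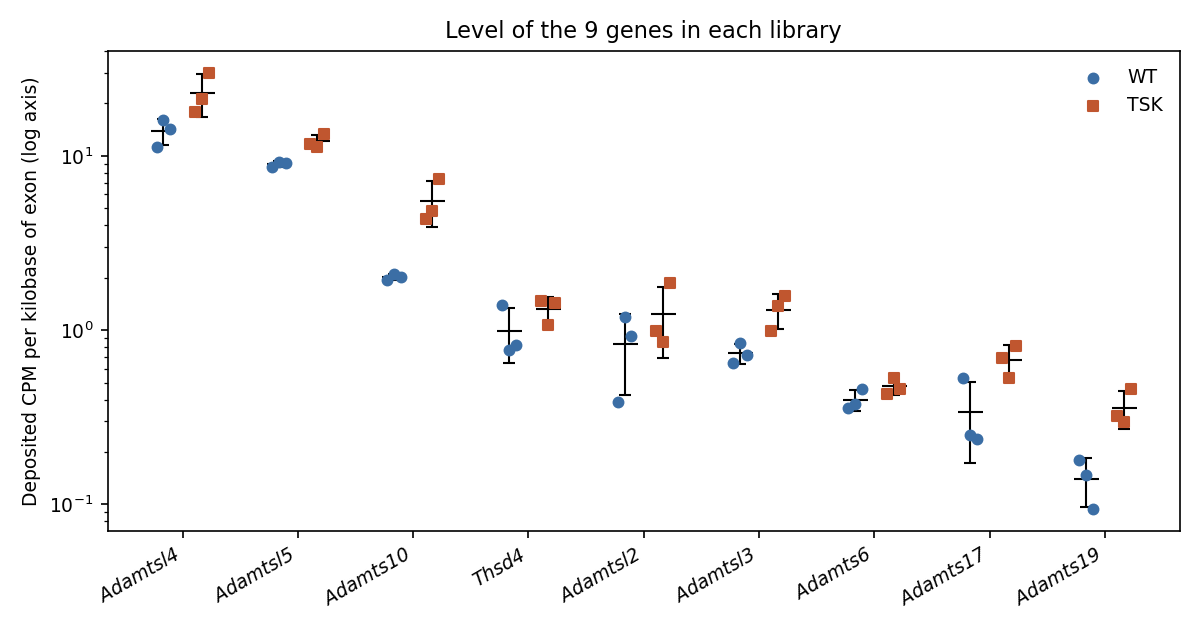
Deposited CPM per kilobase of exon (log axis) of the 9 genes in the 3 WT libraries (blue circles) and the 3 TSK libraries (orange squares), ordered by the WT mean; black bars give the mean and the SD over 3 libraries. Adamtsl4 and Adamtsl5 have the highest levels, and the WT and TSK points do not overlap for Adamts10, Adamts19, Adamtsl3, Adamtsl4 and Adamtsl5.

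Adamts10 encodes a secreted protease that binds fibrillin 1 and has been linked to the assembly of its microfibrils. The gene lies at chr17:33524204-33553782 on the plus strand (GRCm38). It measured 16.003, 17.3 and 16.6 CPM in the WT libraries and 36.02, 39.9 and 60.7 CPM in the TSK libraries. On the deposited CPM the WT libraries were nearly equal, every TSK library was above all of them, and TSK 3 was the highest. After TMM scaling the WT libraries were at 15.6, 21.1 and 18.7 CPM and the TSK libraries at 34.0, 35.8 and 53.9 CPM. The mean of the deposited CPM was 16.6 ± 0.669 in WT and 45.5 ± 13.3 in TSK (SD, n = 3 each), a ratio of 2.74. This ratio is not the TMM-scaled fold change to which the fold threshold of the study was applied. With TMM scaling, edgeR gave a log2 fold change of 1.16 (SE 0.20, 95% interval 0.70 to 1.62, adjusted p = 0.0236). The gene was supported by 281 to 1146 estimated counts per library, and no stretch of 50 bases or more of its transcripts was shared with another gene at 95% identity. Leaving out WT 3 raised its adjusted p to 0.099 with a log2 fold change of 1.18.

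Adamts19 encodes a protease known for its part in the shaping of heart valves. The gene lies at chr18:58836667-59054060 on the plus strand. It measured 2.53, 2.06 and 1.33 CPM in the WT libraries and 4.50, 4.16 and 6.46 CPM in the TSK libraries. All TSK libraries were above all WT libraries, before and after TMM scaling. The mean of the deposited CPM was 1.97 ± 0.608 in WT and 5.04 ± 1.24 in TSK (SD, n = 3 each), a ratio of 2.56 before TMM scaling. The log2 fold change, 1.08 (SE 0.28, 95% interval 0.45 to 1.71), was close to that of Adamts10, but the adjusted p was 0.0718 in edgeR and 0.0191 in DESeq2. It rested on 24.1 to 122 estimated counts per library, the lower of which was the lowest count of the 9 genes in any library, and its call differed between the tools.

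Adamts17, the closest relative of Adamts19, lies at chr7:66839735-67153171 on the plus strand. It measured 4.13, 1.94 and 1.83 CPM in the WT libraries and 5.36, 4.11 and 6.33 CPM in the TSK libraries. WT 1 stood above the other WT libraries and just above TSK 2, so the groups overlapped. The mean was 2.63 ± 1.29 CPM in WT and 5.27 ± 1.11 CPM in TSK (SD, n = 3 each). TSK exceeded WT by a log2 fold change of 0.76 (SE 0.30, 95% interval 0.09 to 1.44), with an adjusted p of 0.198. Without WT 1 the values were 1.15 and 0.0507.

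Adamts6, a protease required for normal heart development, lies at chr13:104287835-104496695 on the plus strand. It measured 2.79, 2.93 and 3.57 CPM in the WT libraries and 3.37, 4.16 and 3.60 CPM in the TSK libraries. The groups overlapped, and no difference was detected, with 49 to 80 estimated counts per library. In edgeR, the log2 fold change was -0.03 (SE 0.22, 95% interval -0.53 to 0.47, adjusted p = 0.963). The upper end of this interval lay below the lower end of that of Adamts10, although the difference between the genes was not itself tested.

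Of the ADAMTS-like genes, Adamtsl4 had the highest level. Its product binds fibrillin 1 in the fibres that hold the eye lens, and the gene lies at chr3:95676201-95687917 on the minus strand. It measured 47.4, 67.5 and 59.9 CPM in the WT libraries and 74.7, 88.8 and 126 CPM in the TSK libraries. All TSK libraries were above all WT libraries on this scale, but the groups overlapped after TMM scaling. The mean was 58.3 ± 10.1 CPM in WT and 96.5 ± 26.6 CPM in TSK (SD, n = 3 each). The log2 fold change of 0.42 (SE 0.24, 95% interval -0.13 to 0.97) did not pass the test, with an adjusted p of 0.378. It was 0.20 without TSK 3, 0.25 without WT 1 and 0.63 without WT 2. Its transcripts share stretches of 50 bases or more, at 95% identity or above, with those of 40 other genes. The longest of these, of 122 bases, had 95.1% to 95.9% identity. A part of its reads may have been divided among genes, which was not tested.

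Adamtsl5, whose product binds microfibrils and heparin, lies at chr10:80339110-80348412 on the minus strand. It measured 40.5, 43.7 and 43.2 CPM in the WT libraries and 55.2, 53.3 and 63.1 CPM in the TSK libraries. As for Adamtsl4, the groups were apart on the deposited CPM and overlapped after TMM scaling. The mean was 42.5 ± 1.73 CPM in WT and 57.2 ± 5.22 CPM in TSK (SD, n = 3 each). Its log2 fold change was 0.14 (SE 0.14, 95% interval -0.18 to 0.46, adjusted p = 0.636), with the smallest error of the 9 genes. It was 0.052 without WT 1, 0.083 without TSK 3 and 0.24 without WT 2.

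Adamtsl3, a matrix gene known from genetic studies of human height, lies at chr7:82335694-82614450 on the plus strand. It measured 5.01, 6.55 and 5.55 CPM in the WT libraries and 7.70, 10.7 and 12.1 CPM in the TSK libraries. Here too the groups were apart on the deposited CPM and overlapped after TMM scaling. The mean was 5.70 ± 0.779 CPM in WT and 10.2 ± 2.26 CPM in TSK (SD, n = 3 each). With a log2 fold change of 0.53 (SE 0.23, 95% interval 0.01 to 1.05), Adamtsl3 had an adjusted p of 0.239.

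Adamtsl2, whose product binds both fibrillin 1 and the latent TGF-beta binding protein LTBP1, lies at chr2:27079379-27108981 on the plus strand. It measured 3.09, 9.45 and 7.38 CPM in the WT libraries and 7.90, 6.88 and 14.8 CPM in the TSK libraries. WT 1 was the lowest and TSK 3 the highest, and the remaining libraries of the groups were intermixed. The log2 fold change was 0.24 (SE 0.45, adjusted p = 0.819), and its 95% interval of -0.79 to 1.27 was the widest of the 9. Its sign turned without WT 1 (-0.12) and without TSK 3 (-0.15), and it was 0.68 without WT 2 and 0.45 without TSK 2.

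Thsd4, also named ADAMTSL6, encodes a protein that promotes the assembly of fibrillin 1 into microfibrils. The gene lies at chr9:59966931-60522046 on the minus strand. It measured 19.4, 10.8 and 11.5 CPM in the WT libraries and 20.5, 15.05 and 20.0 CPM in the TSK libraries. WT 1 lay within the range of the TSK libraries, whereas the other WT libraries were below it. The log2 fold change was 0.17 (SE 0.20, 95% interval -0.29 to 0.62, adjusted p = 0.695). It was 0.40 without WT 1, 0.30 without TSK 2 and between 0.058 and 0.13 without each of the others. Its transcripts share stretches of 50 bases or more, at 95% identity or above, with those of 80 other genes. The longest of these, of 65 bases, had 95.4% identity.

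Per kilobase of exon, the 9 genes covered a wide range of levels in WT skin. Adamtsl4 was the highest with 13.9 ± 2.42 CPM per kilobase, followed by Adamtsl5 with 8.99 ± 0.366 and Adamts10 with 2.01 ± 0.0811 (SD, n = 3 each). The other 6 were below 1 CPM per kilobase: Thsd4 had 0.992 ± 0.341, Adamtsl2 had 0.831 ± 0.406, Adamtsl3 had 0.737 ± 0.101, Adamts6 had 0.397 ± 0.0536, Adamts17 had 0.339 ± 0.167 and Adamts19 had 0.141 ± 0.0433. Thsd4 and Adamtsl2, Adamtsl2 and Adamtsl3, and Adamts6 and Adamts17 were neighbours in this order whose libraries overlapped. Fbn1 itself had 22.5 ± 1.17 CPM per kilobase. Adamtsl4 was thus below Fbn1, and the proteases other than Adamts10 had the 3 lowest levels of the 9. In TSK skin, Adamtsl4 (23.0 ± 6.33), Adamtsl5 (12.1 ± 1.10) and Adamts10 (5.52 ± 1.61) had the first places again, with no overlap between them. Adamtsl3 came before Adamtsl2 and Adamts17 (0.678 ± 0.143) before Adamts6 (0.476 ± 0.052), but the libraries of both pairs overlapped in TSK, as they did in WT, and so did those of Thsd4 and Adamtsl3 and of Adamts6 and Adamts19. Fbn1 reached 160 ± 31.1 CPM per kilobase. This used the exonic length of the normal gene, 12128 bases, although the duplication in the TSK allele adds to its length. Fbn1 also shares 2442 exonic bases with Gm9913, a gene on the opposite strand. The part of either in the Fbn1 values, including its log2 fold change, was not tested. Summed over the 9 genes, the deposited CPM ran from 141 to 162 in the WT libraries and from 215 to 313 in the TSK libraries. After TMM scaling the sum ran from 137 to 197 in WT and from 203 to 278 in TSK, so that the highest WT and the lowest TSK library were close.

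**Figure D2:**
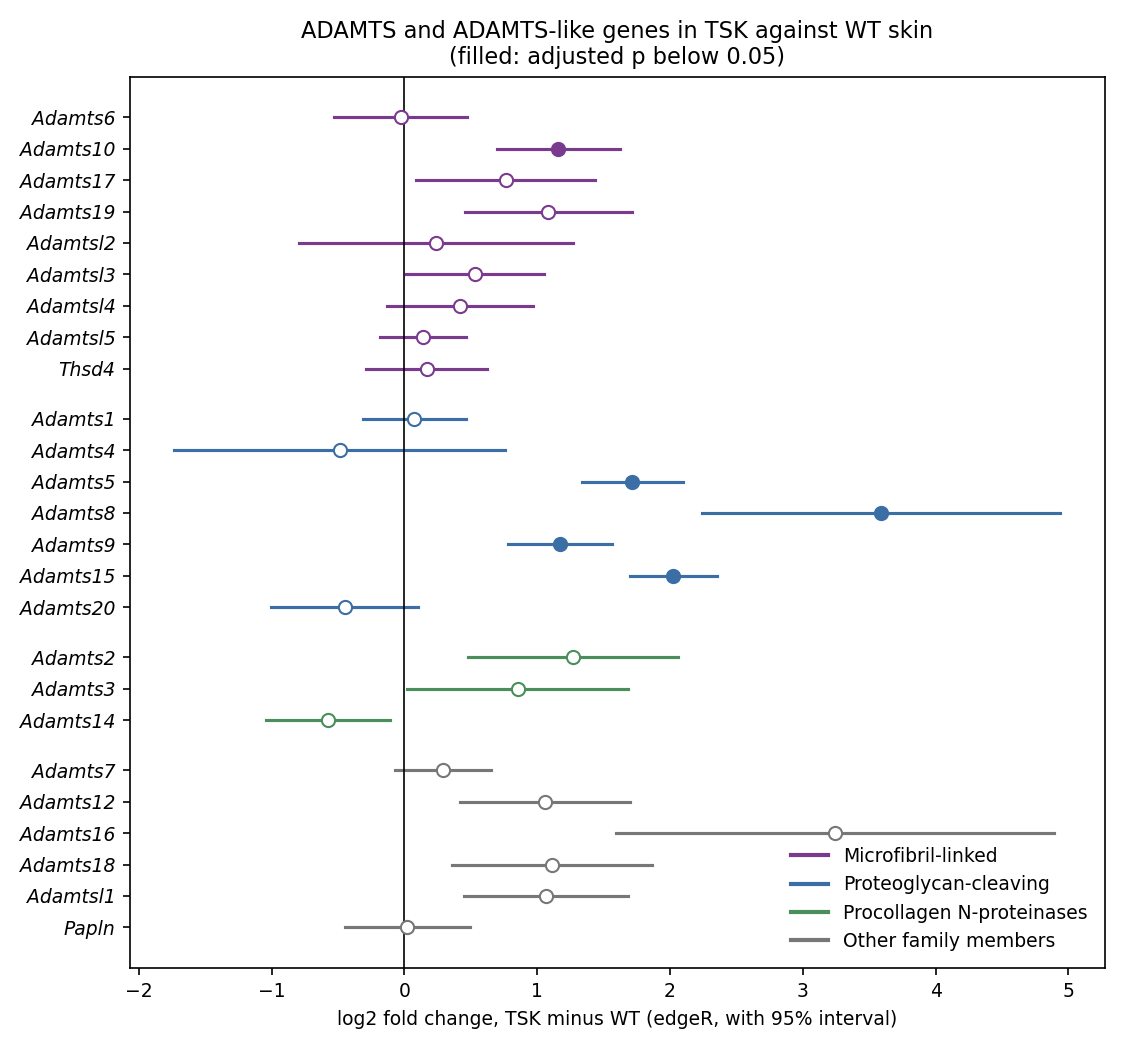
Log2 fold change (TSK minus WT, edgeR) with its 95% interval for the 9 microfibril-linked genes and the 16 other genes of the family that were tested, grouped by role; filled circles have an adjusted p below 0.05. Adamts10 is the filled circle among the 9, and Adamts5, Adamts8, Adamts9 and Adamts15 are those among the proteoglycan-cleaving proteases.

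The rest of the ADAMTS family was described by role. Of the 7 proteases that cleave large proteoglycans such as versican and aggrecan, 4 rose and 0 fell, with a median log2 fold change of 1.17. Adamts15 went from 6.76 to 9.25 CPM in the WT libraries to 36.9 to 46.3 CPM in the TSK libraries (log2 fold change 2.03, SE 0.14, adjusted p = 0.00187). Adamts5, the main aggrecan-cleaving enzyme of mouse cartilage, went from 16.6 to 17.1 CPM to 51.3 to 76.6 CPM (1.72, SE 0.17, adjusted p = 0.00519). The log2 fold changes of both exceeded that of Adamts10. Adamts9 had a log2 fold change of 1.17 (SE 0.17, adjusted p = 0.0148), about that of Adamts10. Adamts8, at 0.171 to 1.12 CPM in WT and 4.94 to 13.6 CPM in TSK, had one of 3.59 (SE 0.59, adjusted p = 0.020).

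None of the 3 procollagen N-proteinases passed the test in edgeR, although Adamts2, Adamts3 and Adamts14 all had an unadjusted p below 0.05 and DESeq2 called Adamts2 higher. The log2 fold changes were 1.27 for Adamts2 (adjusted p = 0.0863), 0.85 for Adamts3 (adjusted p = 0.242) and -0.58 for Adamts14 (adjusted p = 0.162). Of the 7 other family members, 6 were tested, and edgeR called 0 higher or lower; 4 had an unadjusted p below 0.05 and DESeq2 called 3 higher. The lowest p among them belonged to Adamts16, which was at no more than 0.374 CPM in WT and between 1.27 and 2.28 CPM in TSK (adjusted p = 0.0509), followed by Adamtsl1 (1.07, adjusted p = 0.0716), Adamts12 (1.06, adjusted p = 0.0808) and Adamts18 (1.11, adjusted p = 0.107). Over the 16 tested genes outside the 9, the median log2 fold change was 1.06 and 4 were called higher (2 without WT 3 and 6 without WT 2), compared with 0.42 and 1 for the microfibril-linked genes; whether the groups of genes differ was not tested.

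The genes for the microfibril proteins to which the 9 are linked were counted in the same way. Of 15 genes for fibrillins and microfibril or elastic fibre partners, 8 rose and 0 fell, with a median log2 fold change of 1.01. The number was 3 without WT 3 and 4 without TSK 3, fits that called 60 and 387 of all genes. Beside Fbn1, the lowest p-values belonged to Mfap5 (2.61, adjusted p = 0.00327), a glycoprotein bound to fibrillin, Emilin2 (2.23, adjusted p = 0.00606), an elastin-interface protein, and Mfap2 (1.94, adjusted p = 0.0107), another microfibril glycoprotein. Adamts10 had a log2 fold change below all of these.

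The proteases of the ADAMTS family can be cut by proprotein convertases and held in check by TIMP3, which does not extend to the ADAMTS-like proteins as a group. Sugars are added to thrombospondin repeats in the secretory pathway. Of 8 genes for these steps, edgeR called 0 higher or lower, but 7 were higher at an unadjusted p below 0.05, beside 12.1% of all genes, and DESeq2 called 4 higher. The lowest p-values belonged to the convertases Pcsk6 (log2 fold change 1.21, adjusted p = 0.0666) and Pcsk5 (1.52, adjusted p = 0.0783), the inhibitor Timp3 (0.69, adjusted p = 0.0757) and Dpy19l1 (0.58, adjusted p = 0.078), of a family of mannosyltransferases that act on thrombospondin repeats. Of 10 genes for growth factors that microfibrils hold, 8 were tested, edgeR and DESeq2 each called 0, and 2 had an unadjusted p below 0.05, Tgfb2 (0.49, adjusted p = 0.161) and Tgfb1 (0.47, adjusted p = 0.211). They were followed by Bmp7 (0.49, adjusted p = 0.274) and Gdf11 (-0.38, adjusted p = 0.429). Of 10 targets of TGF-beta signalling, edgeR called 0, DESeq2 called Col1a1 higher, and 2 had an unadjusted p below 0.05. These were Col1a1 (1.84, adjusted p = 0.0654), a collagen gene that is also a fibroblast marker, and Smad7 (0.39, adjusted p = 0.249), an inhibitor of the pathway. Bhlhe40 had a log2 fold change of -0.28 (adjusted p = 0.342).

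Because the fibroblast markers were higher in TSK skin, each of the 9 genes was also expressed relative to their mean on the log2 scale. The 10 markers all had log2 fold changes above 0, with a median of 1.03, and 2 passed the test in edgeR and 7 in DESeq2. Markers of other cell types also moved. Of 10 adipocyte markers edgeR called 3 higher (median log2 fold change 2.64), of 6 tested hair follicle markers 3 higher (2.12), of 6 markers of differentiated keratinocytes 2 higher (0.55), of 7 endothelial markers 2 higher (0.77), of 7 mural cell markers 1 higher (0.56) and of 8 tested markers of developing muscle 7 lower (-2.28). It called none of the markers of adult skeletal muscle, basal keratinocytes, macrophages, mast cells, Schwann cells or melanocytes. Of these, DESeq2 called 13 of the 16 adult muscle markers lower and 1 higher, and 3 of the 7 macrophage markers, 1 mast cell marker and 1 melanocyte marker higher. At an unadjusted p below 0.05 edgeR had 10 adult muscle markers and 1 of 7 basal keratinocyte markers lower, beside 7.9% of all genes. By the same rule 1 adult muscle, 5 macrophage, 4 mast cell, 2 Schwann cell and 3 melanocyte markers were higher, beside 12.1% of all genes. Their part in the values of the 9 genes was not tested. On the scale relative to the fibroblast markers, Adamts10 differed by 0.13 between TSK and WT (exact permutation test over libraries, two-sided, p = 0.4), with overlapping groups. Adamts19 differed by 0.058 (exact p = 0.9) and Adamts17 by -0.22 (exact p = 1). With 3 against 3 libraries this test cannot go below 0.1, so these values do not show that the 3 proteases were at the same relative level in both groups. Leaving out each library in turn moved the difference of Adamts10 between 0.068 and 0.24, that of Adamts19 between -0.25 and 0.39 and that of Adamts17 between -0.47 and 0.29.

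For the remaining 6 genes the difference was below 0. It was -1.02 for Adamts6, -0.86 for Adamtsl5, -0.58 for Adamtsl4 and -0.47 for Adamtsl3, and all TSK libraries of these 4 genes were below all WT libraries. Each of the 4 had an exact permutation p of 0.1, the smallest that 3 against 3 libraries can give, and a p of 0.225 adjusted over the 9 genes. Over all genes tested, 69.5% had TSK libraries wholly below WT libraries on this scale and 0.696% wholly above. Thsd4 (-0.83) and Adamtsl2 (-0.65) had overlapping groups and an exact permutation p of 0.3 each. Without each library in turn, Thsd4 ranged from -1.10 to -0.43 and Adamtsl2 from -0.99 to -0.41. When the fibroblast score entered the edgeR fit as a covariate, the log2 fold change of Adamts10 was 0.41 and its adjusted p 0.542. That fit called 1 of all 19971 genes, and Fbn1 itself had a log2 fold change of 2.189 with an adjusted p of 0.189. The score itself separated the groups: it was 7.21, 7.97 and 7.81 in the WT libraries and 8.34, 8.55 and 9.12 in the TSK libraries (mean log2 CPM after TMM scaling). Genotype and fibroblast score therefore could not be told apart.

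**Figure D3:**
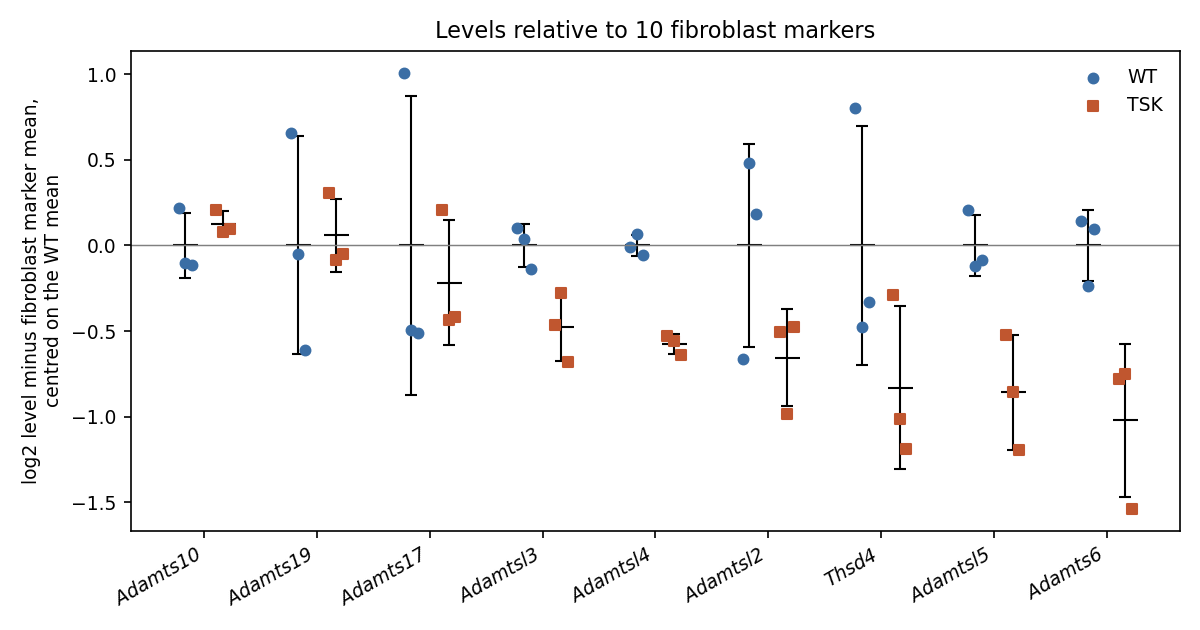
Log2 level of each of the 9 genes minus the mean of the 10 fibroblast markers, centred on the WT mean, in the 3 WT libraries (blue circles) and the 3 TSK libraries (orange squares); black bars give the mean and SD over 3 libraries. Adamts10 and Adamts19 stay near 0 in TSK, and Adamts6 and Adamtsl5 have the lowest TSK points.

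The genes most like Adamts10 over the 6 libraries were found by the root mean square difference of centred log2 CPM after TMM scaling. They were Gpr153, an orphan receptor gene, with a difference of 0.066, Cygb, for the globin cytoglobin, with 0.082, and Rian, a noncoding RNA of an imprinted region, with 0.091. Gpr153 measured 12.6, 12.9 and 13.2 CPM in the WT libraries and 25.6, 28.6 and 47.4 CPM in the TSK libraries. On the deposited CPM, Adamts10 and Gpr153 had a nearly flat WT group and the highest value in TSK 3. On the TMM scale that the likeness used, the WT libraries of Adamts10 were less even, at 15.6, 21.1 and 18.7 CPM. The likeness is a description over 6 libraries that was not tested.

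**Figure D4:**
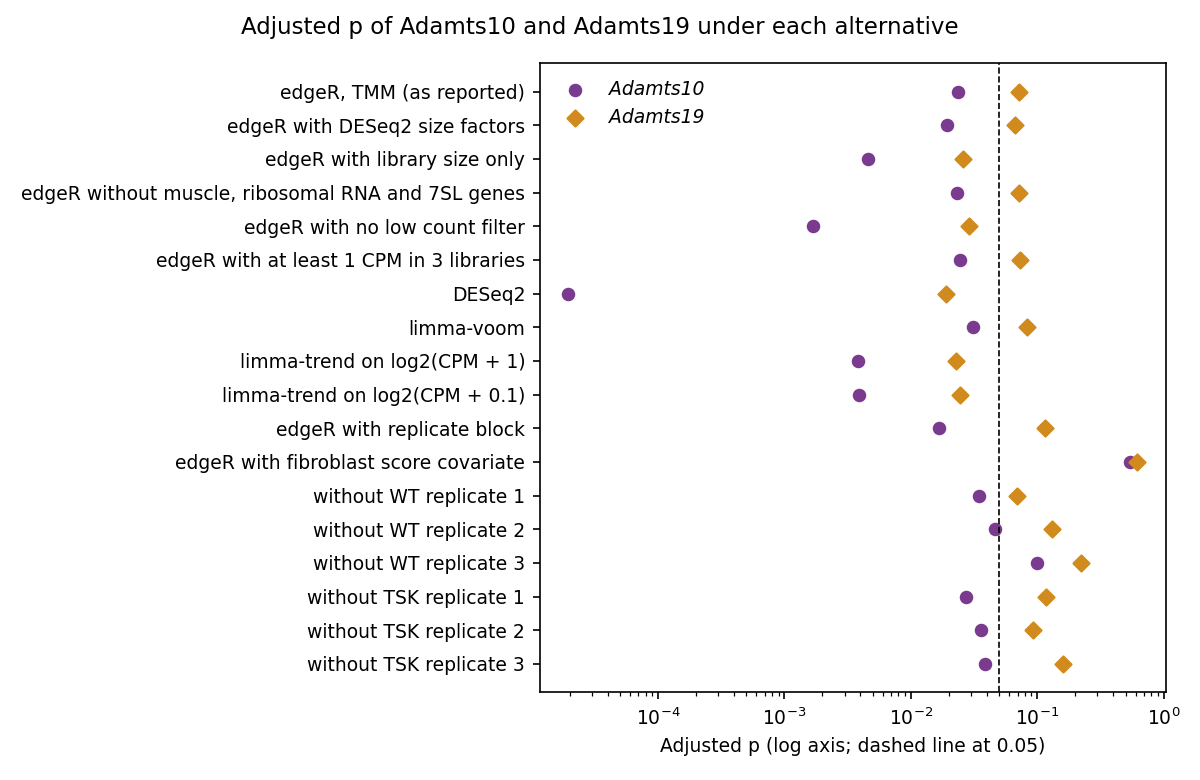
Adjusted p (log axis) of Adamts10 (purple circles) and Adamts19 (orange diamonds) in the reported fit and in 17 alternatives to it; the dashed line marks 0.05. Adamts10 lies left of the line in 15 of the 17 alternatives and Adamts19 in 5 of them.

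The call on Adamts10 was compared over 17 other ways of fitting the data. Its log2 fold change stayed above 0 in all 17, between 0.41 and 1.45, and its adjusted p was below 0.05 in 15. The exceptions were the fits without WT 3 and with the fibroblast score. Adamts19 passed in 5 of the 17, with log2 fold changes from 0.79 to 1.36 and adjusted p-values from 0.0191 to 0.621. With library size as the sole scaling 8.44% of all genes were higher, and without the low count filter 2.99%; Adamts19 passed in both. Adamtsl3 passed in 2, in both of which no TMM factors were used, and Adamts6, Adamts17, Adamtsl2, Adamtsl4, Adamtsl5 and Thsd4 passed in none.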

How the data were processed

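RNA of dorsal skin from 3 WT and 3 TSK mice was analysed, grouped by the genotype in the labels. The authors depleted ribosomal RNA, made stranded libraries, sequenced single-end reads of 50 bases, demultiplexed with bcl2fastq 2.19.1.403, aligned with STAR to mm10 and quantified genes in Partek Flow 11.0. The counting model and strand setting are not given in the sources used here. They deposited estimated counts per gene, many of them not whole, which were rounded here, and CPM, counts scaled by the library total. Intervals reflect the spread between libraries, and depth limits genes with few counts.

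The main test was edgeR 4.0.16 (quasi-likelihood, TMM, filterByExpr, TSK minus WT), with Benjamini-Hochberg adjustment over all 19971 genes tested. DESeq2 1.42.0 and limma 3.58.1 (voom, and trend on log2 of deposited CPM plus 1 or 0.1) were alternatives, with other scalings and filters, a replicate block, a fibroblast covariate and leaving out each library. The fits were tested on simulated data. Levels relative to fibroblast markers used log2 TMM CPM with a prior count of 2 and an exact permutation test. Coordinates are 1-based (GRCm38, GENCODE M21), and shared sequence was found with BLAST 2.17.0.

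The 9 genes and all lists were chosen with earlier results of these data known. All 9 were named, with Fbn1, up to 4 genes of lowest p from each other pathway list, and the 3 genes most like each of the 9 that passed. The values of 1 gene that this rule would name are not reported here.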

Additional observations from a re-analysis of the deposited data

How the results depend on the processing

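Of the 9 genes, 1 was called higher in the reported fit. The number was 3 with library size only, 2 without the low count filter, 2 in DESeq2, 2 in limma-trend on log2(CPM + 1), where 8.87% of all genes were higher, 3 on log2(CPM + 0.1), where 8.82% were, and 0 with the fibroblast covariate. Without each library in turn it was 0 to 1, and the call was lost without WT 3. The covariate fit called 1 of 19971 genes in all and the fit without WT 3 called 60 of 20665, so calls were lost in general there. At the study thresholds it was 1 in place of 0 with library size only, log2(CPM + 1) and log2(CPM + 0.1), where 1.45%, 1.35% and 1.57% of all genes were higher by them. The 8 microfibril genes became 13 with library size only and in both limma-trend fits, 0 with the covariate and 3 to 7 without each library, the lowest without WT 3. The 4 other ADAMTS genes became 9 with library size only and in both limma-trend fits, 8 without the filter, 8 in DESeq2, 0 with the covariate and 2 to 6 without each library, again the lowest without WT 3. The 0 maturation genes became 7 with library size only and in both limma-trend fits, 3 without the filter, 4 in DESeq2 and 0 to 1 without each library. Growth factors became 1 with library size only and in both limma-trend fits, and TGF-beta targets 2 in those, 1 without the filter and 1 in DESeq2. With library size only 8.44% of all genes were higher. The median of all genes moved to 0.25 in that fit and to 0.20 and 0.25 in the limma-trend fits, which bears on every count in these settings.

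Of single values, Adamts6 turned from -0.03 to 0.26 with library size only, 0.20 and 0.26 in the limma-trend fits and -0.15 to 0.11 without each library. With the covariate, Adamtsl2 turned to -1.47, Adamtsl3 to -0.20, Adamtsl4 to -0.53 and Adamtsl5 to -0.22, while Adamts17 went up to 1.14 and Thsd4 to 0.55. Without each library, Adamtsl2 ranged from -0.15 to 0.68, Adamtsl4 from 0.20 to 0.63, Adamtsl5 from 0.052 to 0.24, Thsd4 from 0.058 to 0.40 and Adamts17 from 0.59 to 1.15. Against the microfibril genes instead of the fibroblast markers, the relative difference was -0.064 for Adamts10, -0.41 for Adamts17, -0.67 for Adamtsl3 and -0.77 for Adamtsl4. It was -0.85 for Adamtsl2, -1.05 for Adamtsl5 and -1.21 for Adamts6. Adamts19 turned from 0.058 to -0.13, and the TSK libraries of Thsd4 (-1.02) were all below the WT libraries, where they had overlapped. The median of the 9 genes, 0.42, was 0.73 with library size only, 0.70 and 0.71 in the limma-trend fits, -0.20 with the covariate and 0.20 to 0.65 without each library. The cause of these changes was not tested.

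Libraries with the same number did not pair (correlations of their deviations 0.011, 0.17 and -0.094), and WT 1 correlated best with TSK 3. With the replicate block, the 9 genes had 1 call, Adamts10 (1.14, adjusted p = 0.017), the other ADAMTS genes 7 and the maturation genes 1. Adamts6, Adamts17 and Adamts19 rest on the fewest counts, whereas Adamtsl2 had the largest standard error (0.45).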

Other observations

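Within the WT group, WT 1 stood apart for 3 of the 9 genes. It had the highest Thsd4 (19.4 CPM, other WT libraries 10.8 and 11.5) and Adamts17 (4.13 CPM, others 1.94 and 1.83), and the lowest Adamtsl2 (3.09 CPM, others 9.45 and 7.38). The same library had the highest summed level of 7 basal keratinocyte markers (7942 CPM, other WT libraries 4103 and 4747) and the lowest of 16 adult skeletal muscle markers (172034 CPM, others 249999 and 237242) and of 10 fibroblast markers (6828 CPM, others 9216 and 10195). These are single libraries, and the part of the markers in the 3 genes was not tested.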
